A study of Mus musculus with 5 samples.

Results

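Leukocyte integrins were followed here in bone marrow pro-B cells that had lost the transcription factor MEF2C. The group was fixed by gene name and held 10 genes, *Itga4*, *Itga6*, *Itgal*, *Itgam*, *Itgax*, *Itga2b*, *Itgb1*, *Itgb2*, *Itgb3* and *Itgb7*. A probe set, the group of oligonucleotides that reports 1 transcript, was named for 9 of the 10, with 1 probe set each, among 17323 named genes and 23809 probe sets. *Itga6* had no named probe set and was not analysed here. The deposited table followed a detection filter described in the methods, so genes scarce on most arrays may have been left out of it. RNA was measured on 5 Affymetrix whole-genome mouse arrays. There were 2 arrays of *Mef2c*-deficient (Vav-Cre *Mef2c* fl/fl) and 3 of control pro-B cells. The cells were B220+ IgM- CD43+ CD24+, were sorted from bone marrow and came from mice 9 months old. Vav-Cre removes the floxed allele throughout the haematopoietic system and not in B cells alone. By the methods a control, matched in age, carried either floxed *Mef2c* with no Cre (fl/fl or fl/+) or Vav-Cre with a single floxed copy (fl/+), and which of these each control array held was not given in the sources used here. The methods call the samples independent, but whether an array held the RNA of 1 mouse or of pooled mice was not given either.

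Integrins are pairs of an α and a β chain that span the membrane and hold a cell to its surroundings or to other cells. Inside-out signals through RAP1, talin and kindlin switch them to a state that binds ligand, and bound integrins in turn signal through focal adhesion and SRC family kinases. In bone marrow, α4β1 (VLA-4) holds B-cell progenitors to VCAM1 on stromal cells and to fibronectin. The β2 integrins, LFA-1 (αLβ2), MAC-1 (αMβ2) and CD11c/CD18 (αXβ2), occur on leukocytes, where MAC-1 is best known from myeloid cells and CD11c from dendritic cells. The α4β7 pair is known for homing to the gut, and αIIbβ3 is the fibrinogen receptor of platelets.

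The deposited values were made by the authors with robust multiarray averaging and stand on a linear scale. Between 296 and 422 values per array lay above 65535, the largest signal a 16-bit scanner records, and natural logarithms of all values ran from 1.15 to 14.53. This fits e, rather than 2, raised to the log2 signal, which the sources do not state. Read this way, 2-fold in deposited values corresponds to 1.62-fold in signal. Levels and fold changes below are of deposited values unless named as signal. A probe set was called where it passed both thresholds of the study, 2-fold or more and an unadjusted p no greater than 0.05, with p taken from a limma fit of all 23809 probe sets. The fold was taken on deposited values here. If the study took it in signal, the cut used here is looser than that of the study. At a fold of 2 in signal, 0 integrins were called higher and 0 lower. Each p printed is adjusted over that whole fit. The targeted gene *Mef2c* had levels of 7379 and 6219 on *Mef2c*-deficient replicates 1 and 2, against 14006, 20854 and 17220 on control replicates 1, 2 and 3. Its log2 fold change was −1.34 (SE 0.28, limma adjusted p = 0.103), and the groups did not overlap. With probe sets split by mean level into 10 groups, the brightest group, which held *Mef2c*, had a median of −0.90. Where its probe set lies relative to the deleted part of the gene was not given in the sources used here.

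Of the 9 integrin probe sets, 0 were called lower and 1, *Itgb1*, was called higher in *Mef2c*-deficient pro-B cells. The *Itgb1* probe set lay below the array median on all 5 arrays. Among all probe sets 13.5% were called lower and 10.1% higher. Both *Mef2c*-deficient arrays lay below all controls for 1 integrin, *Itga4*, and above all controls for 2, *Itgb1* and *Itgb3*. Among all probe sets these shares were 23.5% and 27.5%. The median log2 fold change of the 9 was 0.59, beside 0.19 over all probe sets. After Benjamini-Hochberg adjustment limma gave 0 of 23809 probe sets under 0.05, with a smallest adjusted p of 0.102, while 7038 passed 0.05 unadjusted and the unpaired test of the methods gave 14 under 0.05 after the same adjustment. Bright probe sets were mostly lower and dim ones mostly higher in this table. With probe sets split by mean level into 10 groups, the groups' medians of the log2 fold change lay between 0.62 in a dim group and −1.07 in the ninth, so the median of each integrin's own level group is given beside it.

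**Figure D1:**
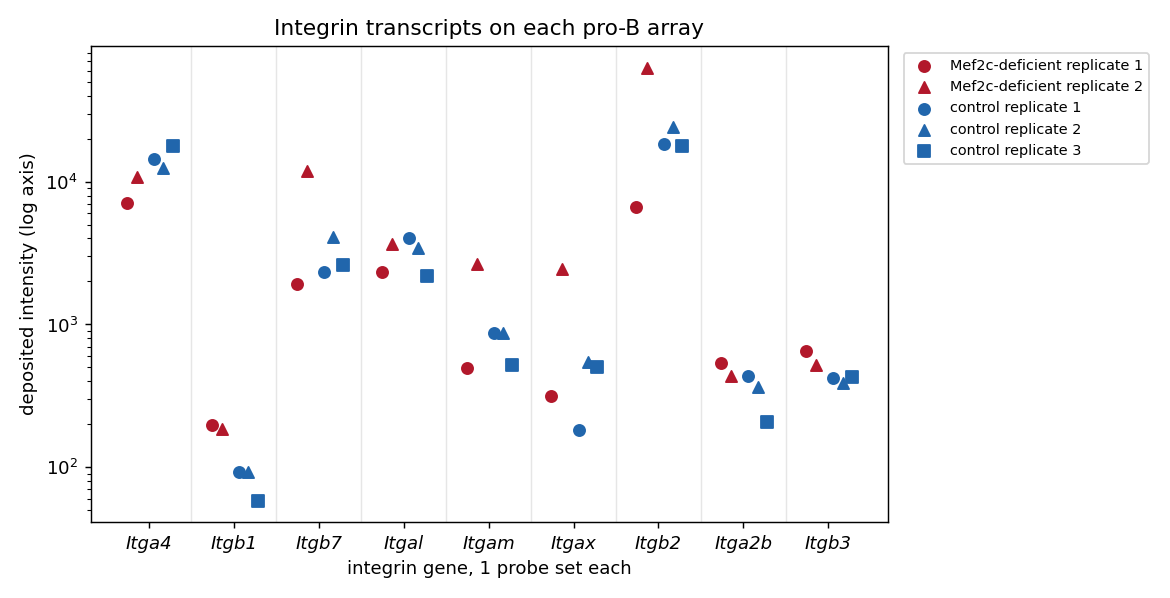
Deposited intensity (log axis) of the 9 measured integrins, 1 point per array, with *Mef2c*-deficient arrays in red to the left of control arrays in blue. *Mef2c*-deficient replicate 2 (red triangle) is the highest of the 5 arrays for *Itgb7*, *Itgam*, *Itgax* and *Itgb2*, where *Mef2c*-deficient replicate 1 lies at or below most controls.

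The α4 and β1 chains form VLA-4. *Itga4* (probe set 1421194_at) had levels of 7056 and 10717 on *Mef2c*-deficient replicates 1 and 2, against 14493, 12535 and 17767 on control replicates 1, 2 and 3. Both *Mef2c*-deficient arrays were thus below every control, with means of 8887 ± 2589 (SD, n = 2) and 14932 ± 2643 (SD, n = 3) in *Mef2c*-deficient and control cells. The log2 fold change was −0.77 (SE 0.31, 95% interval −1.58 to 0.05, limma adjusted p = 0.182), short of the fold threshold and, unadjusted, of the p threshold. The probe sets of its level group had a median of −0.90. Without *Mef2c*-deficient replicate 2 *Itga4* was called lower, at −1.07 (limma adjusted p = 0.0913), and without *Mef2c*-deficient replicate 1 it was not called, at −0.46 (limma adjusted p = 0.329). It was above 0 under 3 of the 4 other normalizations tried, at 0.25 with cyclic loess, 0.10 with further quantile normalization and 0.0326 with centring on housekeeping genes.

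*Itgb1* (1426919_at), which encodes the β1 chain shared by VLA-4 and many matrix receptors, had levels of 198 and 186 on *Mef2c*-deficient replicates 1 and 2. On control replicates 1, 2 and 3 it had 92.0, 92.0 and 58.5. The groups did not overlap, and the log2 fold change was 1.28 (SE 0.31, 95% interval 0.48 to 2.08, limma adjusted p = 0.108), or 1.85-fold higher in signal. Its level lay below the median of the array on all 5 arrays, and its level group had a median of 0.58. This was the only probe set named for the gene, while 5672 probe sets had no symbol. How well it reports the *Itgb1* transcript was not tested. The values of control replicates 1 and 2 were identical in the deposited table, as for 17.6% of all probe sets, and 49 other probe sets shared its value on *Mef2c*-deficient replicate 2. The call ended under 6 of 17 alternatives, among them a constant of 50 added to all values (log2 fold change 0.90) and cyclic loess (0.76), and it held with each of the 5 arrays left out in turn (1.06 to 1.39).

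The β7 chain pairs with α4. *Itgb7* (1418741_at) had 1935 and 11949 on *Mef2c*-deficient replicates 1 and 2, against 2338, 4120 and 2612 on control replicates 1, 2 and 3. The lowest and the highest of the 5 arrays were thus both *Mef2c*-deficient, 6.18-fold apart, where the controls spanned 1.76-fold. The log2 fold change was 0.71 (SE 0.83, 95% interval −1.44 to 2.86, limma adjusted p = 0.532), beside a median of −1.07 in its level group.

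The β2 chain, CD18, is common to LFA-1, MAC-1 and CD11c/CD18, and its transcript differed most between the *Mef2c*-deficient arrays among the 9 integrins. *Itgb2* (1450678_at) had 6692 and 62920.0 on *Mef2c*-deficient replicates 1 and 2, against 18436, 24129 and 17776 on control replicates 1, 2 and 3. *Mef2c*-deficient replicate 1 was below every control, at 0.33 of their mean, and *Mef2c*-deficient replicate 2 was above every control, 2.61-fold over the highest of them. The controls spanned 1.36-fold. The log2 fold change of 0.04 (SE 0.97, 95% interval −2.47 to 2.56, limma adjusted p = 0.979) is therefore the average of opposite deviations, and its interval holds changes past the fold threshold in either direction. Its level group had a median of −0.90.

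The α chains of the β2 family fell into separate patterns. *Itgal* (1425367_at), the α chain of LFA-1, had 2313 and 3661 on *Mef2c*-deficient replicates 1 and 2, against 4027, 3429 and 2198 on control replicates 1, 2 and 3. Both *Mef2c*-deficient arrays lay within the range of the controls, and the log2 fold change was −0.10 (SE 0.39, 95% interval −1.11 to 0.91, limma adjusted p = 0.855). Its level group had a median of −1.07.

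*Itgam* (1422046_at), which encodes the CD11b chain of MAC-1, had 494 and 2657 on *Mef2c*-deficient replicates 1 and 2, against 872, 872 and 521 on control replicates 1, 2 and 3, of which the equal values are identical in the table. *Itgax* (1419128_at), the CD11c chain, had 318 and 2449 on *Mef2c*-deficient replicates 1 and 2, against 184, 550 and 502 on control replicates 1, 2 and 3. For either gene *Mef2c*-deficient replicate 2 stood above every other array, by 3.05-fold for *Itgam* and 4.46-fold for *Itgax*, and the remaining *Mef2c*-deficient array was below or within the controls. The log2 fold change of *Itgam* was 0.64 (SE 0.78, 95% interval −1.37 to 2.65, limma adjusted p = 0.548). That of *Itgax* was 1.25 (SE 1.02, 95% interval −1.38 to 3.89, limma adjusted p = 0.385), a fold past 2 with an unadjusted p that misses the threshold. *Itgax* lay below the array median on 1 array. The level groups of *Itgam* and *Itgax* had medians of −0.84 and −0.20.

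*Itga2b* and *Itgb3* encode the chains of αIIbβ3, and β3 also pairs with αV. *Itga2b* (1417758_at) had 535 and 435 on *Mef2c*-deficient replicates 1 and 2, against 435, 368 and 207 on control replicates 1, 2 and 3. The value of 435 was identical on *Mef2c*-deficient replicate 2 and control replicate 1, so the groups met, and 77 other probe sets shared the value of *Mef2c*-deficient replicate 1 on that array. *Itgb3* (1421511_at) had 652 and 520 on *Mef2c*-deficient replicates 1 and 2, against 424, 387 and 426 on control replicates 1, 2 and 3. Both *Mef2c*-deficient arrays were above every control, with means of 586 ± 93.5 (SD, n = 2) and 412 ± 21.7 (SD, n = 3) in *Mef2c*-deficient and control cells. The log2 fold changes were 0.59 for *Itga2b* (SE 0.40, 95% interval −0.45 to 1.62, limma adjusted p = 0.32) and 0.50 for *Itgb3* (SE 0.24, 95% interval −0.12 to 1.12, limma adjusted p = 0.224). Neither was called, and their level groups had medians of 0.36 for *Itga2b* and −0.20 for *Itgb3*. Of the 9 markers measured for megakaryocytes and platelets, 2 to 3 reached the array median on any array.

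**Figure D2:**
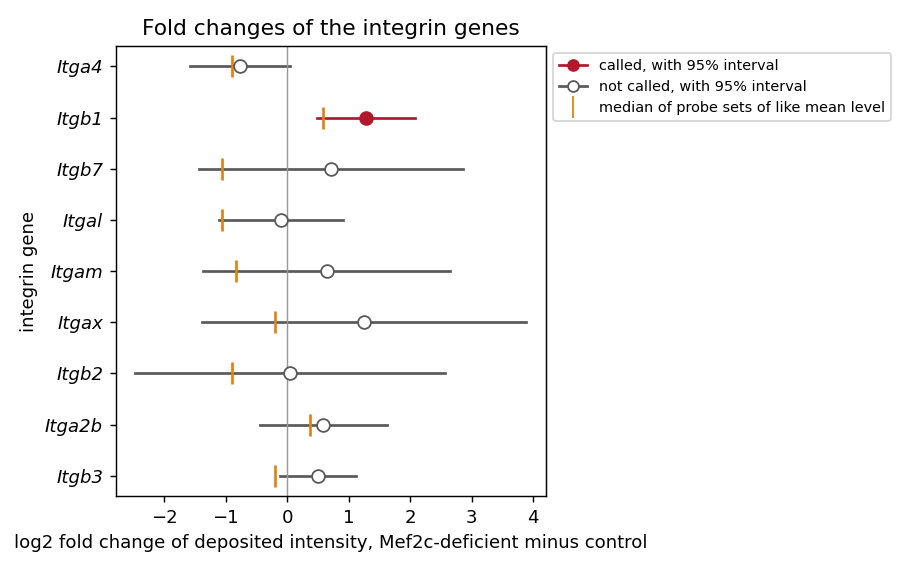
Log2 fold change of each integrin (horizontal axis, *Mef2c*-deficient minus control, 2 and 3 arrays) with its 95% interval from limma, and the median log2 fold change of the probe sets in the same level group (orange tick). The interval lies apart from 0 for *Itgb1* alone among the 9, and it is over 3 log2 units wide for *Itgb7*, *Itgam*, *Itgax* and *Itgb2*.

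The *Mef2c*-deficient arrays split the integrins into 2 sets. *Mef2c*-deficient replicate 2 was over *Mef2c*-deficient replicate 1 by 9.40-fold for *Itgb2*, 7.70-fold for *Itgax*, 6.18-fold for *Itgb7* and 5.38-fold for *Itgam*. It was over it by 1.58-fold for *Itgal* and 1.52-fold for *Itga4*, and it was at 0.94, 0.81 and 0.80 of it for *Itgb1*, *Itga2b* and *Itgb3*. *Mef2c*-deficient replicate 2 was the highest of the 5 arrays for 4 of the 9 integrins. The share of all probe sets highest on that array was not worked out, so this count and the marker counts below have no baseline. Log2 values of the *Mef2c*-deficient arrays correlated at 0.913 with each other, against 0.972 to 0.989 between controls.

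With 1 *Mef2c*-deficient array left out, 5 integrins lay on either side of 0 according to which array it was. Without *Mef2c*-deficient replicate 2, *Itgb2* was called lower at −1.57 (limma adjusted p = 0.0573). *Itgb7*, *Itgam* and *Itgax* then had log2 fold changes of −0.60, −0.57 and −0.22, and *Itgal* had −0.43. Without *Mef2c*-deficient replicate 1, *Itgb2* was called higher at 1.66 (limma adjusted p = 0.0648), *Itgb7* at 2.03 (limma adjusted p = 0.0934) and *Itgam* at 1.86 (limma adjusted p = 0.103). *Itgax* was then at 2.73 (limma adjusted p = 0.152) and *Itgal* at 0.23. In these fits 1 array stood for the *Mef2c*-deficient group and was assumed to vary as the controls did. *Itgb1*, *Itga2b* and *Itgb3* stayed above 0 and *Itga4* below 0 with either array left out. The median of the 9 was −0.43 without *Mef2c*-deficient replicate 2.

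**Figure D3:**
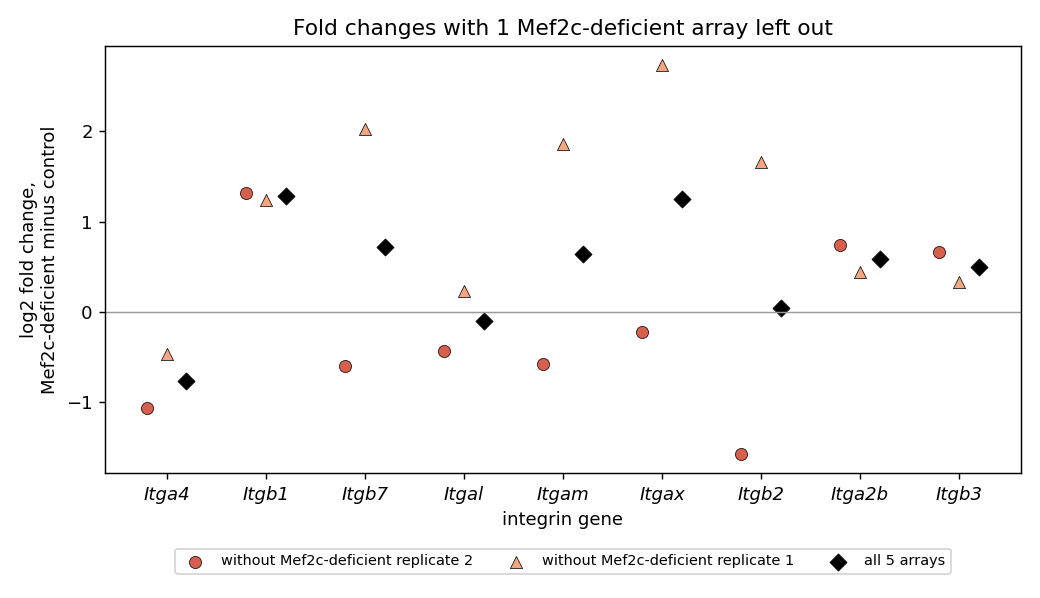
Log2 fold change (*Mef2c*-deficient minus control) of each integrin without *Mef2c*-deficient replicate 2 (circles), without *Mef2c*-deficient replicate 1 (triangles) and over all 5 arrays (diamonds). The points without either array lie on opposite sides of 0 for *Itgb7*, *Itgal*, *Itgam*, *Itgax* and *Itgb2*, as far as −1.57 and 1.66 for *Itgb2*.

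Markers of other cell types differed between the same arrays. In bulk RNA, a change in the share of cells of a type and a change in RNA per cell cannot be told apart. Of 14 neutrophil and monocyte markers measured, 13 to 14 were at or above the array median on every array, and 7 were highest on *Mef2c*-deficient replicate 2, where the list's median was 1.38-fold over the mean of the other 4 arrays. Their summed level was 2506804 and 5735978 on *Mef2c*-deficient replicates 1 and 2, against 2328088 to 4865675 on control arrays. *Ltf*, a protein of neutrophil granules, had 42337 and 586424 on *Mef2c*-deficient replicates 1 and 2, against 199358, 253473 and 81934 on control replicates 1, 2 and 3. *Csf3r*, the receptor of granulocyte colony-stimulating factor, had 478 and 7105 on *Mef2c*-deficient replicates 1 and 2, against 2732, 3389 and 1685 on control replicates 1, 2 and 3. Either gene was thus lowest on *Mef2c*-deficient replicate 1 and highest on *Mef2c*-deficient replicate 2, the order that *Itgb2*, *Itgb7* and *Itgam* had, and *Ltf* and *Csf3r* stood furthest above the other arrays in the list. Other members lay below the mean of the other 4 arrays there. *Mpo*, *Elane*, *Prtn3* and *Ctsg*, which encode proteins of the granules made first in maturation, were at 0.56, 0.53, 0.48 and 0.33 of it. *Cd14* was at 0.08 of it. In that order of genes the controls themselves spanned 14.2-fold, 10.1-fold, 13.4-fold, 5.71-fold and 122-fold. For each of these genes *Mef2c*-deficient replicate 2 was below control replicates 1 and 2 and above control replicate 3.

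Dendritic cell markers were highest on *Mef2c*-deficient replicate 2 for 6 of 7 measured, with summed levels of 3171 and 20754 on *Mef2c*-deficient replicates 1 and 2, against 2886 to 7100.1 on control arrays. T and NK cell markers were highest there for 8 of 14, with sums of 11075 and 52079 on *Mef2c*-deficient replicates 1 and 2, against 21995 to 31530 on control arrays. *Cd3e*, a chain of the T-cell receptor complex, had 366 and 13843 on *Mef2c*-deficient replicates 1 and 2, against 387, 232 and 387 on control replicates 1, 2 and 3, the widest difference in the list. The cytotoxic granule genes *Prf1* and *Gzma* were at 0.48 and 0.53 of the mean of the other 4 arrays and were called lower in *Mef2c*-deficient cells, and *Cd247* and *Klrd1* were at 0.66 and 0.91. *Cd8a* and *Ncr1* were called higher, at log2 fold changes of 2.25 and 1.31, and lay below the array median on all 5 arrays. The 8 macrophage markers had a median there of 0.81 of the mean of the other 4 arrays. The 1 of them highest there was *C1qb*, at 3283 and 8.2-fold over that mean. The group comparison called 0 of the 8 lower and 1 higher, *C1qa*, at a log2 fold change of 1.80. Of 5 erythroid markers 3 were highest on *Mef2c*-deficient replicate 2, with a median of 5.81-fold over the mean of the other 4 arrays, and 2 reached the array median on any array. Of the 5, 0 were called lower and 1, *Slc4a1*, was called higher, at a log2 fold change of 2.71. Values on this scale are always above 0, so a level above 0 does not by itself show that a marker was expressed.

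All 10 B lineage markers measured were at or above the array median on every array, as were nearly all neutrophil and monocyte markers. On *Mef2c*-deficient replicate 2 the median of the B lineage markers was 0.44 of the mean of the other 4 arrays, and 0 of the 10 were highest there. That mean was raised by control replicate 3 for *Rag1*, *Rag2* and *Dntt*, at 140899, 22769 and 127098. The controls spanned 10.6-fold, 20.7-fold and 15.0-fold for them. *Mef2c*-deficient replicate 2 was above control replicates 1 and 2 for *Rag1*, *Dntt* and *Cd79a*. It was below every control for *Vpreb3*, *Igll1*, *Blnk*, *Ebf1* and *Il7r*. *Blnk* and *Ebf1*, an adaptor of B-cell receptor signalling and a transcription factor that specifies B cells, were furthest below, at 0.09 and 0.10 of that mean. *Cd79a* and *Cd79b*, which encode signalling chains of the B-cell receptor, were at 1.24 and 0.81 of it. *Dntt*, which encodes the terminal transferase of early B cells, was at 0.83 of it and was 11.7-fold over *Mef2c*-deficient replicate 1. Among genes of the sort, *Ptprc*, which encodes CD45 and thereby B220, had 2245 and 9744 on *Mef2c*-deficient replicates 1 and 2, against 2446, 2111 and 1805 on control replicates 1, 2 and 3. *Spn*, which encodes CD43, had 12954 and 22550 on *Mef2c*-deficient replicates 1 and 2, against 28835, 28712 and 53155 on control replicates 1, 2 and 3, and so was below every control on both. *Cd24a* had 683783 and 152861 on *Mef2c*-deficient replicates 1 and 2, against 528504 to 564592 on control arrays. The part of these differences in the integrin levels was not tested. Some of the B lineage markers are reported by the paper as lower without *Mef2c*. These are *Il7r* and *Ebf1* in pre-B cells, and *Rag1* and *Rag2* in pro-B and pre-B cells. For such genes a change with genotype and a change in the share of cells cannot be told apart here.

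**Figure D4:**
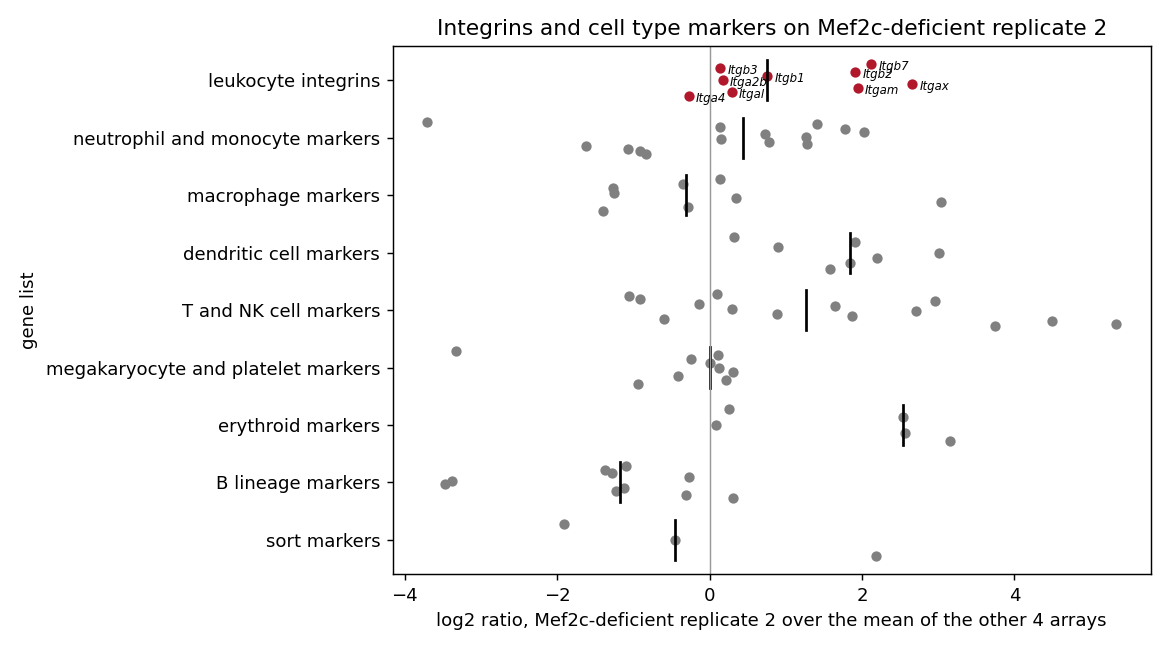
Log2 ratio of the level on *Mef2c*-deficient replicate 2 to the mean of the other 4 arrays (horizontal axis) for each integrin (red, named) and each measured marker gene (grey), each list's median drawn as a black line. *Itgax*, *Itgb7*, *Itgam* and *Itgb2* lie between 3.76-fold and 6.30-fold above the other arrays, where the list medians were 5.81-fold for erythroid, 3.60-fold for dendritic cell, 2.49-fold for T and NK cell and 1.38-fold for neutrophil and monocyte markers, with 1.0 for megakaryocyte and platelet, 0.81 for macrophage, 0.73 for sort and 0.44 for B lineage markers.

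RefSeq promoters (GRCm38.p6, 250 bases before to 50 after the start) were given for 6 of the 10 integrins, *Itga2b*, *Itga4*, *Itgam*, *Itgax*, *Itgb1* and *Itgb7*. PU.1 and RUNX proteins are known regulators of integrin genes in blood cells, and MEF2C binds an A/T-rich MEF2 site. The letters GAGGAA (a PU.1 box), TGTGGT (a RUNX site) and a MEF2 site were searched on both strands. The PU.1 box was in 4 of the 6 (*Itgam*, *Itgb1*, *Itgb7* and *Itga2b*) and in 28.3% of all 32851 promoters. The RUNX site was in 2 (*Itga4* and *Itgax*) and in 16.8% of all, and the MEF2 site in 0 of 6 and 3.19% of all. The promoters of *Itgam* (chr7:128062390-128062689, plus strand), *Itgax* (chr7:128129300-128129599, plus strand) and *Itgb7* (chr15:102231886-102232185, minus strand) are shown because these 3 genes shared the highest level on *Mef2c*-deficient replicate 2. They are written 5′ to 3′ along the gene, and capitals mark GAGGAA or TGTGGT, or TTCCTC where the PU.1 box lies on the opposite strand. No matches overlapped.
Itgam: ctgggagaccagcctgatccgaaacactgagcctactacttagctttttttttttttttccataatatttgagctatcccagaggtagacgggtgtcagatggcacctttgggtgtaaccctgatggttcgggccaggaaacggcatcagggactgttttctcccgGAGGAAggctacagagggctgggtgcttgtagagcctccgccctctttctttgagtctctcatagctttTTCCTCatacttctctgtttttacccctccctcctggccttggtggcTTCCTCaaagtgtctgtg
Itgax: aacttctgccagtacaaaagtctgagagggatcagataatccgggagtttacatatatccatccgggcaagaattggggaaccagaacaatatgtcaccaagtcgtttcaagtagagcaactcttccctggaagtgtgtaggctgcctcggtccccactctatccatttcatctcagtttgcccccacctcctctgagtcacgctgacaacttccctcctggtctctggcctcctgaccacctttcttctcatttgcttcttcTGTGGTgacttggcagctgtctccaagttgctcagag
Itgb7: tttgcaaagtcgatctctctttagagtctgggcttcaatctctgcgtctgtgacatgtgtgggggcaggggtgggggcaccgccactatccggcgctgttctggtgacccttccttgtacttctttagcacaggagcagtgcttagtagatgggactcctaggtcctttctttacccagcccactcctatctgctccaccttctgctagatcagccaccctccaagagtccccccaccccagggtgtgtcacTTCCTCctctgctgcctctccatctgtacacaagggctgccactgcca
The *Itgam* window held 3 PU.1 boxes, whose first bases lay at −84, −15 and 33 from the start, and the *Itgb7* window held 1 at 3. The *Itgax* window held none and had 1 RUNX site at 14. These letters are a description of the windows and not evidence of binding.

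The other genes of the pathway were read from 4 lists with 84 of 103 genes measured. Each was read by its named probe set, or by the brightest where it had more than 1. Among all 17323 named genes, 284 had more than 1, so for most genes there was no choice of probe set. Of these 84, 11 were called lower and 11 higher in *Mef2c*-deficient pro-B cells. Over all 17323 genes read the same way, 16.6% were called lower and 9.56% higher, with a median log2 fold change of 0.04. None of the 84 had an adjusted p under 0.05 from limma, while 27 passed 0.05 unadjusted, beside 5614 of the 17323 genes.

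Among 15 of 17 other integrin subunits measured, 1 was called lower and 5 higher, with a median log2 fold change of 0.91. *Itgav*, the αV chain of vitronectin receptors and a partner of β3, had 894 and 1216 on *Mef2c*-deficient replicates 1 and 2, against 4124, 2703 and 2703 on control replicates 1, 2 and 3. Its log2 fold change was −1.58 (SE 0.32, limma adjusted p = 0.103), the last pair of control values being identical. The probe sets of its level group had a median of −0.84. *Itgb4*, the β chain of the laminin receptor α6β4, was higher at 1.57 (SE 0.43, limma adjusted p = 0.116), with 1013 and 494 on *Mef2c*-deficient replicates 1 and 2, against 206, 317 and 206 on control replicates 1, 2 and 3. The β6 and β5 chains (*Itgb6* 1.63 and *Itgb5* 1.25), the α7 chain (*Itga7* 1.27) and the integrin-like *Itgbl1* (1.96) were the other 4, each below the array median on 3 or more arrays. The level groups of the 5 called higher had medians between 0.36 and 0.62.

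Of 23 activators and inhibitors measured out of 28, 5 were called lower and 1 higher, with a median of −0.50. *Rasgrp2*, which encodes the RAP1 exchange factor CalDAG-GEFI, was lower at −1.40 (SE 0.36, limma adjusted p = 0.111). It had 502 and 322 on *Mef2c*-deficient replicates 1 and 2, against 939, 888 and 1421 on control replicates 1, 2 and 3. *Rassf5*, encoding the RAP1 effector RAPL that binds LFA-1, was lower at −1.15, *Rapgef1*, another RAP1 exchange factor, at −1.13, *Slc3a2*, which encodes the β1-binding CD98 heavy chain, at −1.12, and *Sipa1*, a RAP1 GTPase-activating protein that works against RAP1, at −1.01. The members called lower thus held both activators and an inhibitor of RAP1. *Tln2*, a second talin, was higher at 2.01 and lay below the array median on 3 arrays. Those called lower, except *Rasgrp2*, were in the brightest level group. That group had a median of −0.90, with 31.8% of its probe sets called lower. The level groups of *Rasgrp2* and *Tln2* had medians of −0.20 and 0.47.

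Of 26 adhesion complex and kinase genes measured out of 33, 4 were called lower and 2 higher, with a median of −0.71. *Cdc42*, a GTPase of the actin cytoskeleton, was lower at −1.48 (SE 0.31, limma adjusted p = 0.103), with 8360 and 5556 on *Mef2c*-deficient replicates 1 and 2, against 19629, 15847 and 21892 on control replicates 1, 2 and 3. *Vasp*, which extends actin filaments, was lower at −1.43, the integrin-linked kinase gene *Ilk* at −1.31 and the RAC exchange factor gene *Vav1* at −1.16. *Parva* (1.08), a partner of ILK, and *Src* (1.03) were higher and lay below the array median on all 5 arrays. The 4 called lower belong to the brightest 2 of the 10 level groups, whose medians were −1.07 and −0.90.

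Of 20 ligand genes measured out of 25, 1 was called lower and 3 higher, with a median of 0.88. The laminin chain gene *Lamc1* was lower at −1.06, beside a median of −0.84 in its level group. The laminin chain genes *Lamb1* (2.44) and *Lama5* (2.40) and the fibrinogen chain gene *Fgg* (1.22) were higher, and lay below the array median on 5, 4 and 3 arrays. Their level groups had medians of 0.62 for *Lamb1* and 0.47 for *Lama5* and *Fgg*. Over all 4 lists, 10 of the 11 genes called higher lay under the median of 3 or more arrays, and 0 of the 11 called lower lay under it on any. The whole table leaned the same way. In level group 3, counted from the dimmest of the 10, 18.1% of all probe sets were called higher and 1.76% lower. In level group 9 these shares were 0.63% and 38.5%.

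**Figure D5:**
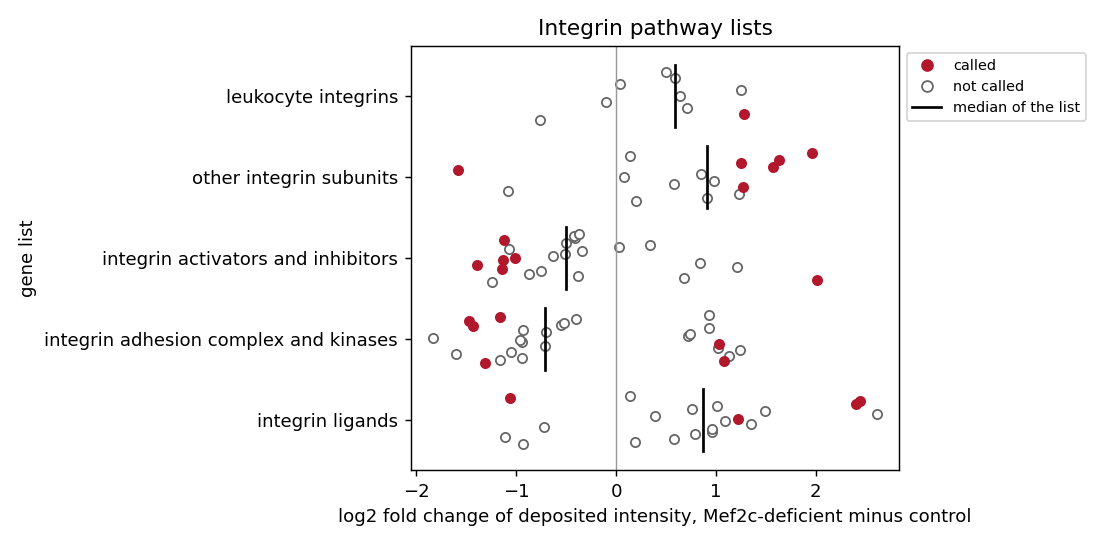
Log2 fold change (horizontal axis, *Mef2c*-deficient minus control, 2 and 3 arrays) of the measured genes of each list, called genes in red and the list median as a black line. The integrins, the other subunits and the ligands have medians of 0.59, 0.91 and 0.88, and the activators and the adhesion complex have medians of −0.50 and −0.71. These medians do not take the level of the genes into account.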

How the data were processed

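Biotin-labelled RNA of sorted pro-B cells was hybridised to 5 arrays. The deposited intensity values were made by the authors with robust multiarray averaging (background adjustment, quantile normalization and probe set summary), and the methods describe a filter on detection calls. The arrays as deposited still differed in distribution. Upper quartiles were 1072 and 968 on *Mef2c*-deficient replicates 1 and 2, against 1478, 1470 and 1850 on control replicates 1, 2 and 3. Lower quartiles were 65.4 and 52.7, against 42.0, 42.9 and 38.8 in the same order. The reason was not tested. Versions and the base of the linear scale were not given in the sources used here. All 5 value columns were used (0 left out). Of 23835 rows, 26 Affymetrix control rows were left out. Symbols came from the platform annotation, where 17621 probe sets had 1 symbol, 516 several and 5672 none. Log2 of the values was fitted with limma 3.58.1 (lmFit and eBayes, R 4.3.3) on 23809 probe sets, with Benjamini-Hochberg adjustment over all of them. The fit was tested on simulated data. Depth does not apply to arrays, whose number (2 and 3) limits the precision. Named were every member probe set, the called genes of 4 pathway lists (at most 8 a list by fold change), *Mef2c* and cell type markers. The pathway lists took 1 probe set per gene, the one with the highest mean where more than 1 was named. Members and lists were chosen with earlier results of these data known. Alternatives were normalizations, array weights, an intensity trend, filters, the methods' t-test, each array left out and a replicate block. P-values measure the spread between these arrays only, which may be partly technical.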

Additional observations from a re-analysis of the deposited data

How the results depend on the processing

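Counts of called integrins rested on few arrays and on scaling. The count called higher was 0 in place of 1 with a constant of 50 added, cyclic loess, further quantile normalization, dim probe sets left out (which removed *Itgb1*), the replicate block, a fold of 2 in signal and an adjusted p under 0.05, and it was 3 (*Itgb1*, *Itgb3* and *Itga2b*) with centring on the 8 of 12 housekeeping genes measured, of which 5 were themselves called lower. With 1 array left out it ranged from 1 to 4, and the count called lower from 0 to 2. Housekeeping centring moved the median of all probe sets to 0.98 from 0.19, array median centring to −0.04, further quantile normalization to 0.03, and cyclic loess to 0.01. The replicate block reused numbers from the labels that only name samples, with correlations of same-numbered deviations of 0.105 and −0.0307.

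Among single integrins, *Itgb2* reversed to −0.19 with array median centring and −0.0397 with the replicate block, and ranged from −1.57 to 1.66 with 1 array left out, with −0.0134 and −0.0397 without control replicates 1 and 3. *Itga4* reversed to 0.25 with cyclic loess, 0.10 with further quantile normalization and 0.0326 with housekeeping centring. *Itgal* reversed to 0.81, 0.77 and 0.70 under the same 3, to 0.23 without *Mef2c*-deficient replicate 1 and to 0.08 without control replicate 1. Without *Mef2c*-deficient replicate 2, *Itgb7*, *Itgam*, *Itgax* and the median of the 9 reversed to −0.60, −0.57, −0.22 and −0.43, and without *Mef2c*-deficient replicate 1 they were 2.03, 1.86, 2.73 and 1.24. *Itgb1*, *Itgb3* and *Itga2b* kept their direction wherever they were fitted. The cause of the other reversals was not tested.

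For the 4 pathway lists, the 11 genes called lower became 17 with array median centring, 7 with array weights, 1 with cyclic loess, 1 with further quantile normalization, 0 with housekeeping centring, 7 with the replicate block, 2 at a fold of 2 in signal and 0 at an adjusted p under 0.05. The 11 called higher became 6 with a constant of 50, 7 without dim probe sets, 35 with housekeeping centring, 7 with the replicate block, 7 with the methods' t-test, 6 at a fold of 2 in signal and 0 at an adjusted p under 0.05. With 1 array left out they ranged from 6 to 11 (fewest without control replicate 2) and from 5 (without control replicate 1) to 20 (without *Mef2c*-deficient replicate 2), with 6 higher without control replicate 3. Over all probe sets 3206 were called lower and 2401 higher. These were 4690 and 1558 with array median centring, 754 and 10916 with housekeeping centring, 1832 and 1591 with cyclic loess, 1832 and 1904 with further quantile normalization, 2308 and 1460 with array weights, 2184 and 1022 with the replicate block, 2025 and 1089 at a fold of 2 in signal, and 1934 and 1368 with the methods' t-test. The count called higher was 876 with a constant of 50, 1123 without dim probe sets, 4389 without *Mef2c*-deficient replicate 2, and 1424 and 1404 without control replicates 1 and 3. The low number of arrays and the ties between deposited values limit the precision.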
